A study of Mus musculus with 2 samples.

Results

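The genes described are 10 heat shock proteins and chaperones, taken by symbol from the 31053 genes of a single-cell RNA data set of mouse colonic B cells: Hspa1a, Hspa1b, Hsph1, Dnajb1, Hspb1, Hsp90aa1, Hspa8, Dnaja1, Hspd1 and Hspe1. All 10 symbols were found. Hspa1a, Hspa1b, Hsph1, Dnajb1, Hspb1 and Hsp90aa1 are treated as the 6 stress-inducible members, and Hspa8, Dnaja1, Hspd1 and Hspe1 as the 4 constitutive members. The day 14 library held B cells of female C57BL/6J mice that had received 2% dextran sulfate sodium (DSS), a polysaccharide that damages the colonic epithelium, in the drinking water for 7 days and had then recovered for 7 more. The day 0 library, the control, held B cells of untreated female C57BL/6J mice. In both, lymphocytes of the colonic lamina propria were sorted for B cells by flow cytometry and sequenced with the 10x Chromium 3′ kit, version 2. The treatment tag of the control sample also names DSS, so its untreated state rests on the protocol and on the series design. Each group is 1 library, and how many mice it came from is not stated there, so there was no replicate spread and no test between the days. All intervals are 95% intervals of counting error and leave out the uneven spread of UMIs over cells.

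Chaperones bind unfolded or newly made proteins and keep them from aggregating. In the cytosol, Hsp70 proteins take up unfolded stretches, J-domain proteins of the Hsp40 family bring the substrate and start the ATP cycle, Hsp110 proteins release the nucleotide, and Hsp90 completes the folding of client proteins such as kinases and receptors. On heat or other protein damage, heat shock factor 1 binds arrays of short inverted repeats, the heat shock elements, and drives the inducible members strongly, while the constitutive members serve the steady load of protein synthesis. In B cells that become plasma cells, antibody folding falls mainly to a separate set of chaperones in the endoplasmic reticulum.

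The letters of heat shock elements were searched in RefSeq promoter sequences (GRCm38.p6, 250 bases before each annotated start), because they are what the inducible genes are known to share. Each stretch with a match follows, 5′ to 3′ on the gene's strand, with the matching letters in capitals and 6 flanking bases on each side. Searched were 2 inverted units (GAANNTTC or TTCNNGAA) and 3 units (GAANNTTCNNGAA or TTCNNGAANNTTC); a 3-unit match also holds 2-unit matches, and the set reads the same on both strands.
Hspa1a, chr17:34972247-34972266, minus strand: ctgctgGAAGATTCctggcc
Hspa1b, chr17:34959329-34959348, minus strand: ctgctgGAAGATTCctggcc
Hsph1, chr5:149636356-149636375, minus strand: gaatctTTCTCGAAggctcg
Hspb1, chr5:135887796-135887835, plus strand: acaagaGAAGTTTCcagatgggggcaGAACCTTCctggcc
Dnaja1, chr4:40722338-40722357, plus strand: cctctaGAAAATTCtacgag
Hspd1, chr1:55088053-55088082, minus strand: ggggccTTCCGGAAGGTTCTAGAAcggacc
Hspe1, chr1:55088053-55088082, plus strand: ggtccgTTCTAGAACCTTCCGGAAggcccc

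The table held a promoter for 8 of the 10 members. A 2-unit match stood in 7 of these 8 genes, the exception being Dnajb1, where 14.5% of all 27025 genes in the table had one in any window and 12.8% of all 32851 windows held one. A 3-unit match stood in 2 of the 8, Hspd1 and Hspe1, against 0.514% of all genes and 0.466% of all windows. These 2 lines are the same 30 bases read from opposite strands: Hspd1 and Hspe1 lie head to head on chromosome 1, and the Hspe1 start and 1 of the 2 RefSeq starts of Hspd1 lie on either side of it. The window before the other Hspd1 start held no match. The stretch of Hspa1a spans bases -110 to -91 from its annotated start. Hspa1b has the same letters at the same place, and the 250 bases before the starts of both genes are 98.8% identical. A match describes letters only, and no binding was measured.

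Both genes lie on the minus strand of mouse chromosome 17 in mm10, Hspa1b at 34956436 to 34959238 and Hspa1a at 34969190 to 34972156, with their nearest ends 9952 bases apart. Their coding sequences are 99.4% identical, so most reads within the coding part cannot be told apart. After the stop codon the annotated transcripts are 48.1% identical, and the last 300 bases, where a 3′ kit places most reads, are 49.9% identical. How reads that match both genes were handled is not stated in the labels or headers, so each gene is given alone and both are also given as a sum.

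The libraries were alike in depth. At day 14, 12317052 UMIs (unique molecular identifiers, which tag single captured transcripts) were found in 4692 cells, with a median of 2241.5 per cell. At day 0 there were 8690102 UMIs in 3290 cells, with a median of 2278.5. The barcode sequences of 17 cells occurred in both. Cd79a, a subunit of the B cell receptor, had a UMI in 97.7% of day 14 cells and 97.8% of day 0 cells, and at most 5 cells of a library had 5 or more UMIs of any marker list of another cell type (T, NK, myeloid, epithelial, stromal or endothelial). Levels are given as CPM, the UMIs of a gene per 1000000 UMIs, where the total leaves out immunoglobulin genes and the mitochondrial genome. Since 3′ counting gives 1 count per captured transcript, CPM are not scaled by gene length. The plasma cell list summed to 2774 CPM at day 14 and 4792 CPM at day 0, and the germinal center list to 49.7 CPM and 116 CPM at these days. Mitochondrially encoded genes gave 3.32% of UMIs at day 14 and 3.05% at day 0.

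The inducible members did not move together between the days. Hspa1a, the main stress-induced Hsp70 together with its near copy Hspa1b, stood at 115 CPM (108.95 to 121) at day 14 and 89.8 CPM (83.4 to 96.6) at day 0, a ratio of 1.28 (1.17 to 1.40). For Hspa1b the levels were 14.7 CPM at day 14 and 11.2 CPM at day 0, a ratio of 1.30 (1.005 to 1.70). In both libraries about the same share of the pair's UMIs was assigned to Hspa1b, 11.3% (9.75 to 13.01) at day 14 and 11.1% (9.05 to 13.5) at day 0. Few cells set the direction of Hspa1a. It turned to a ratio of 0.778 without 1 small cluster described below (54 cells at day 14 and 12 cells at day 0) and widened to 1.61 without class-switched cells (41 at day 14 and 44 at day 0).

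Hsph1, the Hsp110 that exchanges nucleotide on Hsp70, was lower at day 14. It had 43.3 CPM (39.6 to 47.2) at day 14 and 68.3 CPM (62.8 to 74.3) at day 0, a ratio of 0.633 (0.560 to 0.716). The ratio was 0.596 to 0.684 over all alternative cell sets and scalings, and it passed 1.5-fold in all of them but TMM and median-of-ratios scaling, which set the library sums so that most genes do not differ. Dnajb1, the J-domain partner of inducible Hsp70, had 87.4 CPM at day 14 and 93.7 CPM at day 0, a ratio of 0.933 (0.849 to 1.03). Without class-switched cells the ratio was 1.07 and with TMM factors 1.004, so no direction is given.

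Hspb1, a small heat shock protein that holds unfolded proteins without ATP, was rare. It had 76 UMIs at day 14 and 141 UMIs at day 0, which are 6.55 CPM (5.16 to 8.20) and 17.4 CPM (14.7 to 20.5), a ratio of 0.376 (0.281 to 0.501). A single day 0 cell held 59 of the 141 UMIs. Without the cell that had most Hspb1 UMIs in each library the ratio was 0.544, and without class-switched cells it was 0.680, within 1.5-fold. Hsp90aa1, the stress-responsive form of cytosolic Hsp90, was the most abundant inducible member, with 509.8 CPM (496.9 to 523) at day 14 and 631 CPM (614 to 649) at day 0, a ratio of 0.808 (0.778 to 0.839). It supplied 65.6% of inducible UMIs at day 14 and 69.2% at day 0.

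The constitutive members were all within 1.5-fold between the days, with Dnaja1 the furthest apart. Hspa8, the housekeeping Hsp70, was the most abundant of the 10 genes, with 1151 CPM (1131 to 1171) at day 14 and 1127 CPM (1104 to 1150.2) at day 0, a ratio of 1.02 (0.995 to 1.05). Dnaja1, a J-domain partner of Hspa8, had 217 CPM at day 14 and 272.5 CPM at day 0, a ratio of 0.796 (0.752 to 0.843). The mitochondrial folding chamber is built from Hspd1, the Hsp60 barrel, and Hspe1, its Hsp10 lid, which share the bidirectional promoter shown above. Hspd1 had 167 CPM at day 14 and 188 CPM at day 0, a ratio of 0.889 (0.831 to 0.951). Hspe1 had 525 CPM at day 14 and 573 CPM at day 0, a ratio of 0.917 (0.883 to 0.953). Per captured transcript Hspe1 thus stood above Hspd1 in both libraries.

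**Figure D1:**
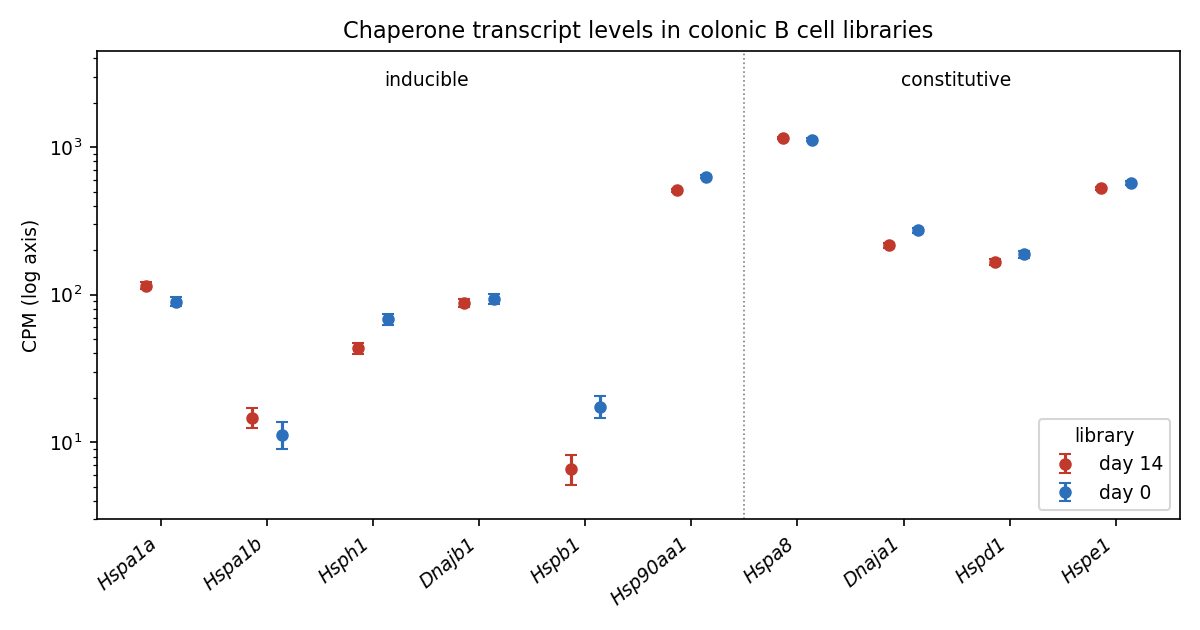
Level of each chaperone gene in the day 14 library (left point of each pair) and the day 0 library (right point), in CPM on a log axis, with exact Poisson 95% intervals of counting error. Hspa1a is at 115 CPM at day 14 and 89.8 CPM at day 0, Hspb1 at 6.55 and 17.4 CPM, and Hspa8 at 1151 and 1127 CPM.

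Of the 10 members, 0 were at least 1.5-fold higher at day 14, where 1.40% of 8955 genes with at least 50 UMIs were. Lower by at least 1.5-fold were 2 of the 10, Hsph1 and Hspb1, where 4.96% of the same genes were. The other 8 were within 1.5-fold, a description of size and not a test. The median log2 ratio was -0.15 over the members and -0.09 over all these genes. Summed, the inducible members had 777 CPM (761 to 793) at day 14 and 912 CPM (891 to 933) at day 0, a ratio of 0.852 (0.826 to 0.879). The constitutive sum was 2060.3 CPM (2034 to 2087) at day 14 and 2160.1 CPM (2128 to 2192) at day 0, a ratio of 0.954 (0.935 to 0.973). Scaling changed the second but not the first direction: with TMM factors the inducible ratio was 0.916 and the constitutive ratio 1.02. Of all member UMIs, 27.4% (26.9 to 27.9) at day 14 and 29.7% (29.1 to 30.2) at day 0 came from inducible genes. The sum of 30 immediate early genes, which mostly code for transcription factors and feedback regulators switched on soon after a stimulus, lay beside it at 5779 CPM at day 14 and 6936 CPM at day 0, a ratio of 0.833 (0.824 to 0.843).

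Differences in the wider chaperone network were small too. Of 76 further genes listed (heat shock factors, other Hsp70, Hsp90 and J-domain proteins, co-chaperones, the CCT and prefoldin complexes, ubiquitin genes and related stress genes), 75 were found and 68 had at least 50 UMIs over both libraries. None of the 68 was 1.5-fold apart in either direction, where 1.40% of all genes were higher and 4.96% lower, with a median log2 ratio of -0.07. The 4 highest ratios among genes with at least 100 UMIs belonged to Fkbp5, an immunophilin that binds Hsp90, at 1.42 (1.01 to 2.01), and to 3 endoplasmic reticulum genes. These were Sdf2l1 at 1.245 (1.12 to 1.39), the J-domain protein Dnajb11 at 1.24 (1.12 to 1.37) and the Hsp90 of that compartment, Hsp90b1, at 1.19 (1.14 to 1.246). The 4 lowest were Ahsa2, a relative of the Hsp90 activator Ahsa1, at 0.678 (0.545 to 0.842), the autophagy receptor Sqstm1 at 0.747 (0.693 to 0.806), Stip1, which links Hsp70 to Hsp90, at 0.762 (0.675 to 0.861), and Hsf1, heat shock factor 1 itself, at 0.763 (0.657 to 0.886). Hsf1 transcripts were at 32.3 CPM at day 14 and 42.4 CPM at day 0. Among the most abundant of these genes, the polyubiquitin gene Ubb had a ratio of 0.900 (0.887 to 0.914), and the constitutive cytosolic Hsp90 gene Hsp90ab1 0.966 (0.943 to 0.989).

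In a library sum, fewer cells with a transcript and fewer transcripts per cell cannot be told apart, so the spread over cells was measured. In it, the inducible Hspa1a and the constitutive Hspa8 differed widely, while inducible and constitutive members as classes overlapped. Hspa1a had a UMI in 182 of 4692 cells at day 14, 3.88% (3.34 to 4.47), and in 114 of 3290 cells at day 0, 3.47% (2.87 to 4.15). Hspa8 had one in 82.0% of cells at day 14 and 81.2% at day 0. Most Hspa1a transcripts came from few cells: at day 14 a cell held up to 60 UMIs and 44 cells with 10 or more (0.938% of cells) held 77.4% of all Hspa1a UMIs. At day 0 the highest cell held 63 UMIs and 18 cells (0.547%) held 73.0%. At the other end, 89 of the 182 cells at day 14 and 60 of the 114 cells at day 0 held a single Hspa1a UMI. Such a UMI can be free RNA, and none of the sorted cells is of a type known to lack the gene. A low share was found in the cluster led by Slfn2, Tifa and Ube2d1, where 0.488% of 1433 cells at day 14 and 0.517% of 580 cells at day 0 had an Hspa1a UMI.

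To compare cells at equal depth, each cell was thinned to 1000 UMIs, which kept 4629 of 4692 cells at day 14 and 3256 of 3290 cells at day 0. Hspa1a then had a UMI in 2.51% (2.07 to 2.998) of day 14 cells and 2.24% (1.76 to 2.81) of day 0 cells. The same UMIs placed independently over cells would have reached 11.01% of day 14 cells and 7.53% of day 0 cells. Over cells, the variance of its UMIs was 10.5 times the mean at day 14 and 9.497 times at day 0, where the median gene stood at 1.01 and 1.02. At day 14, 2 of 5860 genes with at least 50 thinned UMIs had a higher value than Hspa1a, and at day 0, 1 of 5120.

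The other inducible members followed in varied measure. The variance over mean of Dnajb1 was 1.99 at day 14 and 2.29 at day 0, with 19 of 5860 and 14 of 5120 genes above it. Hspb1, on 28 thinned UMIs at day 14 and 38 at day 0, had 2.71 and 5.15. Hsph1 had the lowest value among the inducible genes, 1.14 at day 14 and 1.44 at day 0, and Hsp90aa1 had 1.65 and 1.70. The 1% of cells with most held 32.6% and 30.6% of Hsph1 UMIs but 11.7% and 10.2% of Hsp90aa1 UMIs, at day 14 and day 0 each. Both measures depend on a gene's level, and variance over mean tends toward 1 at low levels. Genes of unlike level, the median gene included, are therefore not ranked by evenness. Constitutive genes were not all even either. Hspe1 had 1.18 at day 14 and 1.32 at day 0, Hspd1 1.12 and 1.39, Dnaja1 1.74 and 1.93, and Hspa8 1.56 and 2.00 at these days, all above the median gene. After thinning, 39.4% of cells at day 14 and 45.2% at day 0 had a UMI of any inducible gene, and 79.3% and 77.9% had one of any constitutive gene.

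**Figure D2:**
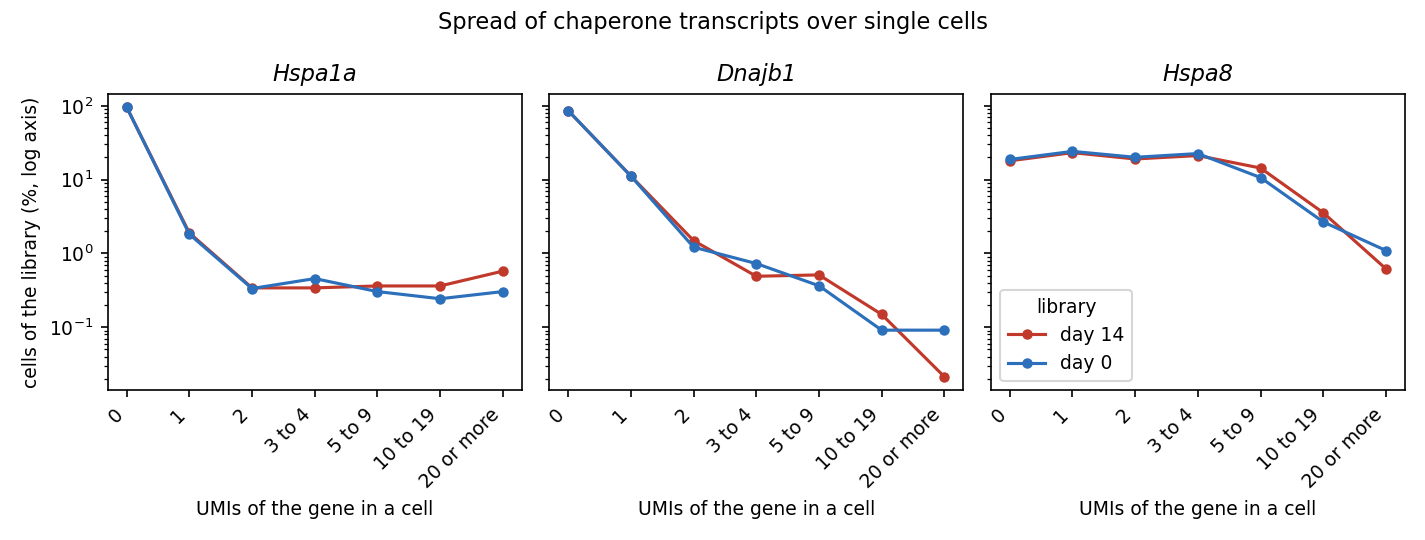
Percent of cells of each library (log axis) by the number of UMIs of Hspa1a, Dnajb1 and Hspa8 found in a cell, without thinning, for day 14 and day 0. Hspa1a levels off at 0.575% of day 14 cells and 0.304% of day 0 cells with 20 or more UMIs, while Hspa8, at 0.618% and 1.09% in that class, is spread over most cells.

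Cells with Hspa1a or Hspa1b were then set against cells without, in each library and after thinning: 131 against 4498 cells at day 14 and 82 against 3174 cells at day 0. Depth did not separate them, with median totals before thinning of 2259 UMIs in cells with and 2251 in cells without at day 14, and 2310.0 with and 2284 without at day 0. All 8 other members were at least 1.5-fold higher in the cells with Hspa1a or Hspa1b at both days. Over all genes with at least 50 UMIs, 14.9% were at day 14 and 18.1% at day 0, while 31.1% at day 14 and 29.2% at day 0 were lower by that much. Hspb1, on 28 thinned UMIs at day 14 and 38 at day 0, falls below the 50 UMIs asked of these genes. The cells chosen hold a transcript whose own level varies with cell state, so these ratios describe cells of 1 library and compare no condition.

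The highest ratios were those of Dnajb1 and Hspb1. Dnajb1 was at 1028 CPM in cells with Hspa1a or Hspa1b and 68.3 CPM in cells without at day 14, a ratio of 15.05 (12.1 to 18.6), and at 1034 and 64.1 CPM at day 0, a ratio of 16.1 (12.3 to 21.04). Hspb1, on few counts, had ratios of 34.2 (15.1 to 77.3) at day 14 and 31.7 (15.7 to 63.0) at day 0. Hsph1 ratios were 8.72 (5.94 to 12.5) and 7.31 (4.91 to 10.6), and those of Hsp90aa1 were 5.19 (4.58 to 5.87) and 4.40 (3.77 to 5.11), at day 14 and day 0 each.

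Constitutive genes were higher in these cells too. Dnaja1 was at 1451 CPM in cells with and 189 CPM in cells without Hspa1a or Hspa1b at day 14, a ratio of 7.66 (6.49 to 9.01), and its ratio at day 0 was 8.11 (6.70 to 9.76). Hspa8 had ratios of 3.17 (2.85 to 3.50) at day 14 and 4.67 (4.17 to 5.22) at day 0. Both mitochondrial genes were higher as well, Hspd1 by 3.52 (2.70 to 4.52) and 5.13 (3.86 to 6.71), and Hspe1 by 2.97 (2.54 to 3.47) and 3.49 (2.92 to 4.16), at day 14 and day 0 each. Immediate early genes moved with the same cells: their sum was at 15407 CPM with and 5827 CPM without at day 14, a ratio of 2.64 (2.52 to 2.77), and at 13122 and 6868 CPM at day 0, a ratio of 1.91 (1.79 to 2.04). The mitochondrially encoded share was 3.24% with and 3.46% without at day 14, and 3.08% and 3.19% at day 0. The plasma cell list was at 510 CPM with and 907 CPM without at day 14, but at 2198 and 1224 CPM at day 0. Among other marker lists, cell cycle genes summed to 47.8 CPM with and 48.0 CPM without at day 14, and to 194 and 55.8 CPM at day 0. The germinal center list stood at 39.9 and 33.4 CPM at day 14, and at 90.5 and 59.8 CPM at day 0, with and without each. Epithelial markers were at 23.9 CPM with and 12.4 CPM without at day 14, and at 12.9 and 13.5 CPM at day 0, and T cell markers at 7.97 and 21.9 CPM at day 14, and at 25.9 and 38.0 CPM at day 0. Endothelial markers were at 47.8 CPM with and 50.1 CPM without at day 14, and at 64.6 and 60.1 CPM at day 0. Myeloid, NK and stromal markers were at 0 in the cells with Hspa1a or Hspa1b. The part of these lists and of the immediate early genes in the result was not tested.

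**Figure D3:**
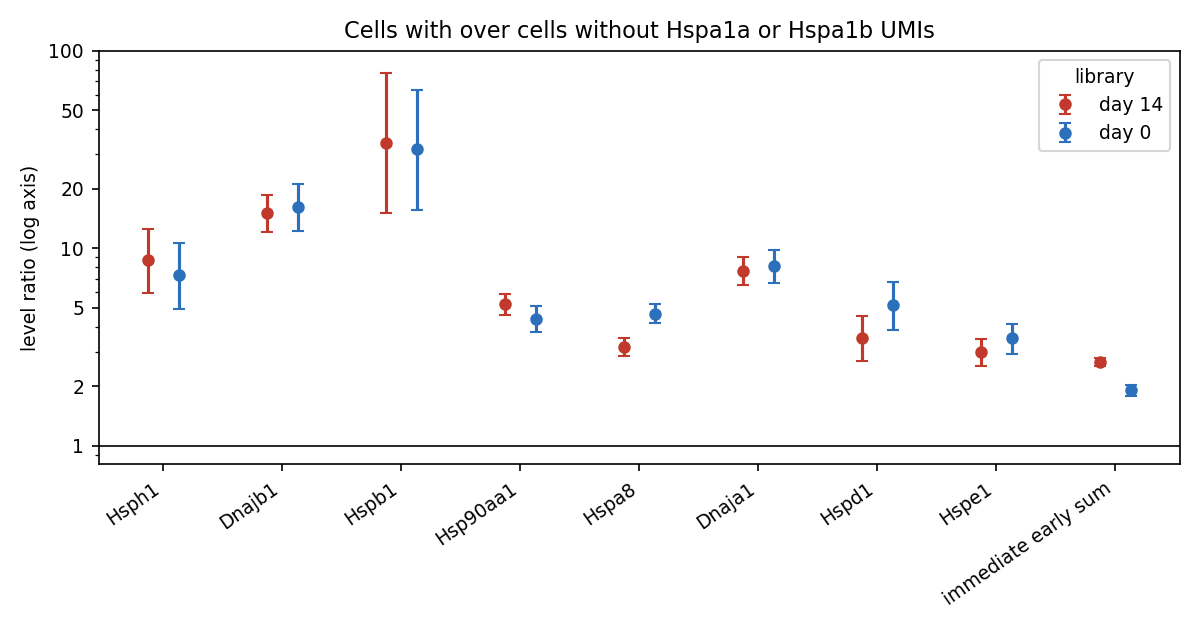
Ratio of the level of each gene in cells with over cells without Hspa1a or Hspa1b UMIs, on a log axis, in cells thinned to 1000 UMIs, with exact conditional 95% intervals of counting error, day 14 left and day 0 right. All points lie above 1, from 34.2 for Hspb1 at day 14 to 1.91 for the immediate early sum at day 0.

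The pair itself was seen together more often than apart where it was abundant. Of the 44 cells with at least 10 Hspa1a UMIs at day 14, 36 (81.8%) also had Hspa1b, and of the 18 such cells at day 0, 16 (88.9%). In the rest of the cells, Hspa1b had a UMI in 1.23% at day 14 and 0.978% at day 0. The 44 cells at day 14 had a median of 2447 UMIs and 3.07% mitochondrially encoded UMIs, against 2240.0 UMIs and 3.32% in all others. The 18 cells at day 0 had a median of 2724 UMIs and 1.93%, against 2276 UMIs and 3.07%. Of the 18 cells 4 were class-switched, and of the 44 cells 0 were. Class-switched cells at day 0 had a median of 12325 UMIs and a mitochondrially encoded share of 1.73%. Such deep cells weigh more in the pooled share and levels of the 18 cells. Cd79a was found in 97.7% of the 44 cells and 100% of the 18 cells. In these cells Hspa8 reached 4607 CPM at day 14 and 7442 CPM at day 0, against 1073 and 1012 CPM in cells with no Hspa1a UMI.

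Among 1705 genes with at least 200 thinned UMIs in each library, leaving out the members themselves, those most like the pair were ranked by the lower of the 2 libraries' ratios between cells with and cells without it. The 8 leading genes were Jun, Gadd45b, Nfkbid, Swt1, Cd69, Fos, Nfkbia and Dnajb9. Jun, a subunit of the AP-1 transcription factor, had ratios of 14.2 (11.8 to 17.1) at day 14 and 5.502 (3.93 to 7.53) at day 0, and Fos, its partner, 6.48 (5.31 to 7.84) and 2.55 (1.81 to 3.49). Cd69, an early activation marker, had 4.28 (3.39 to 5.35) and 2.88 (2.02 to 4.01). Nfkbia, an inhibitor of NF-kappaB, had 2.74 (2.21 to 3.35) and 2.43 (1.80 to 3.21). Dnajb9, a J-domain protein of the endoplasmic reticulum, was the only further chaperone among the 8, at 2.40 (1.48 to 3.70) and 3.63 (2.28 to 5.52).

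Of the other chaperone genes, 17 of 62 with at least 50 UMIs at day 14 were at least 1.5-fold higher in cells with Hspa1a or Hspa1b, 12 were lower by that much and 33 within it, where 14.9% of all genes were higher and 31.1% lower. At day 0 the counts were 23 higher, 9 lower and 28 within, of 60, where 18.1% of all genes were higher and 29.2% lower. Stip1 had a ratio of 3.74 (2.26 to 5.88) at day 14 and 4.32 (2.54 to 6.96) at day 0. Hsp90ab1 had 2.24 (2.01 to 2.496) and 2.43 (2.13 to 2.77). Hsp90b1, on 23 and 27 UMIs in these cells, had 0.628 (0.397 to 0.947) and 1.39 (0.908 to 2.03).

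Clusters built from other genes, with all chaperone genes listed here left out, showed where these cells lay. Of 12 clusters, 1 led by Phlda1, Jun and Egr1 was made up of 54 day 14 cells and 12 day 0 cells. Its Hspa1a and Hspa1b sum was 6632 CPM at day 14 and 7188 CPM at day 0, and 83.3% and 66.7% of its cells had a UMI of the pair. It held 51.8% of all UMIs of the pair at day 14 and 22.5% at day 0, and 28 of the 44 cells with at least 10 Hspa1a UMIs at day 14 and 4 of the 18 at day 0. The inducible sum reached 12966 CPM at day 14 and 16758 CPM at day 0, and the constitutive sum 9407 and 14610 CPM, the highest of the 12 clusters for both sums at both days. Jun and Egr1, which lead it, are immediate early genes, so its own immediate early level is no result.

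Outside it, the cluster led by Pmaip1, Gm6377 and Gpr183 held the largest share of the pair's UMIs, 27.9% at day 14 and 34.5% at day 0. Its level was 224 CPM over 776 of 4692 cells at day 14 and 120.0 CPM over 985 of 3290 cells at day 0. The whole libraries stood at 130 and 101 CPM. The cluster led by Tnfrsf17 was at 32.8 CPM at day 14 and higher at day 0, at 762 CPM over 25 cells. At day 0 only 5 of these 25 cells had a UMI of the pair, and 1 cell held 69 of the 148 UMIs. The cluster led by Egr1, Egr2 and Myc was at 125 CPM (100 to 154) at day 14. At day 0 it was at 155 CPM (123 to 193) over 208 cells, and as the intervals overlap, no direction is given. By contrast, the cluster led by Slfn2, Tifa and Ube2d1 had 3.01 CPM over 1433 cells at day 14 and 3.27 CPM over 580 cells at day 0, and clusters led by Notch2 and by Emp3 were at 7.76 and 13.1 CPM at day 14 and 10.1 and 13.2 CPM at day 0. The constitutive sum ranged less. Among the clusters plotted other than the Phlda1 one, it lay between 1517 and 3077 CPM at day 14, highest in the cluster led by Ifrd2 and Srm, and between 1543 and 4049.5 CPM at day 0, highest in the cluster led by Tnfrsf17. In the Ifrd2 cluster, Hspd1 stood at 475 CPM at day 14 and 427 CPM at day 0, and Hspe1 at 929 and 974 CPM. The Phlda1 cluster was the only one of the 12 with a higher Hspe1 level at either day. Without the Phlda1 cluster, the other inducible members were still 4.14-fold (3.56 to 4.79) higher at day 14 in 90 cells with the pair and 4.54-fold (3.93 to 5.22) at day 0 in 74 cells.

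**Figure D4:**
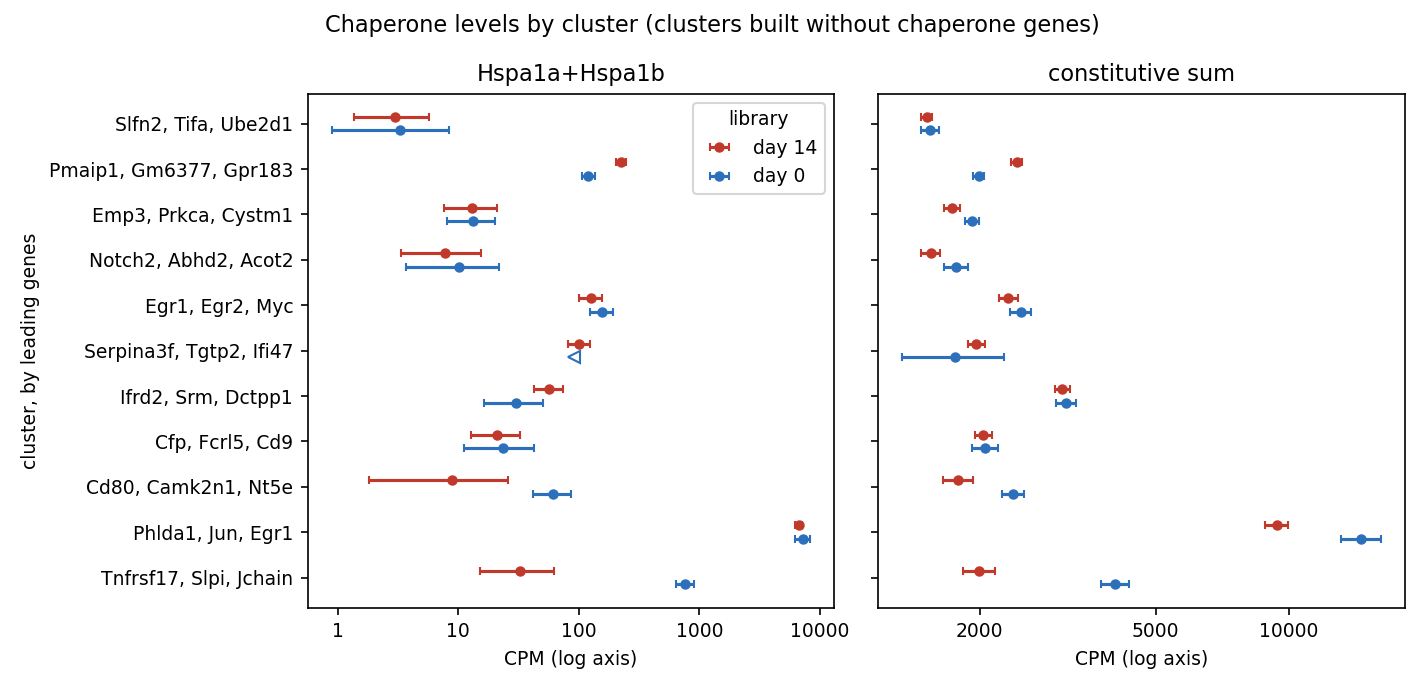
Sum of Hspa1a and Hspa1b (left) and sum of the constitutive members (right) for 11 of the 12 clusters in CPM on log axes, day 14 above day 0 in each row, with exact Poisson 95% intervals of counting error. The open triangle marks the limit of 3 counts where no UMI of the pair was found among 14 cells, and the Phlda1 cluster stands at 6632 CPM at day 14 and 7188 CPM at day 0.

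Isotype state was read from the heavy chain constant genes, which are no members. Class-switched cells (at least 10 UMIs of Igha, Ighg or Ighe genes and over 50% of heavy chain constant UMIs) numbered 41 at day 14 and 44 at day 0. Of these, 31 and 36 were led by Igha, and 30 and 32 had at least 10 UMIs of Jchain, which joins secreted IgA. Their median depth was 12251 UMIs at day 14 and 12325 at day 0, several times that of the other states. Cells with IgM and no Ighd UMI (at least 3 Ighm UMIs) numbered 783 at day 14 and 611 at day 0, and cells with IgD (at least 2 Ighd UMIs), the naive-like state, 1486 and 981. The remaining 2382 and 1654 cells had too few heavy chain UMIs or mixed ones. These states rest on UMI thresholds, and free immunoglobulin RNA and depth can move a cell between them.

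In IgD cells the level of the inducible Hsp70 pair was higher at day 14, while the share of cells with it was nearly the same. After thinning, 2.43% (1.71 to 3.35) of IgD cells at day 14 and 2.15% (1.33 to 3.26) at day 0 had a UMI of the pair. Hspa1a had 464 UMIs or 117 CPM (107 to 128) at day 14 and 132 UMIs or 52.3 CPM (43.7 to 62.0) at day 0, a ratio of 2.24 (1.84 to 2.74). These UMIs came from few cells, with 14 of the 44 cells of at least 10 Hspa1a UMIs at day 14 and 3 of the 18 at day 0. A single day 0 cell held 58 of the 132 UMIs. Without the highest IgD cell of each library the levels were 106 CPM at day 14 and 29.3 CPM at day 0. Hspa1b had a ratio of 2.11 (1.19 to 3.95). The inducible sum in IgD cells nevertheless differed little, at 755 CPM at day 14 and 752 CPM at day 0, a ratio of 1.005 (0.948 to 1.06), as did the constitutive sum at 2057 and 2035 CPM, a ratio of 1.01 (0.976 to 1.05). Immediate early genes in IgD cells stood at 5389 CPM at day 14 and 6510 CPM at day 0, a ratio of 0.828 (0.811 to 0.845), the opposite direction to Hspa1a.

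In IgM cells without IgD, Hspa1a had 121 CPM (106 to 137) at day 14 and 89.0 CPM (74.8 to 105) at day 0, a ratio of 1.36 (1.10 to 1.68). The inducible sum was 818 CPM in IgM cells without IgD and 755 CPM in IgD cells at day 14, a ratio of 1.08 (1.02 to 1.15), which turned to 0.751 where at least 10 Ighm UMIs were asked for, and 871 and 752 CPM at day 0, a ratio of 1.16 (1.08 to 1.24). Of all 10 members, 1 was at least 1.5-fold higher than in IgD cells at day 14, Hspb1 at 1.66 (0.885 to 3.09) on 21 UMIs, and 2 were at day 0, Hspa1a and Hspb1, the second at 3.87 (1.62 to 10.2) on 19 UMIs. Of members with at least 50 UMIs over both states, 0 of 9 were at least 1.5-fold higher at day 14, against 2.35% of genes. At day 0, 1 of 8 was, Hspa1a, at 1.70 (1.33 to 2.18), where 3.12% of all genes were. None was lower by that much at either day, where 2.54% of genes at day 14 and 2.29% at day 0 were.

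Class-switched cells stood apart from IgD cells mainly at day 0. There, 9 of 10 members were at least 1.5-fold higher in class-switched than in IgD cells, all but Hspe1. Of the 9 with at least 50 UMIs over both states, 8 were, where 25.2% of all genes were. None was lower by that much, where 27.5% of all genes were. Hspb1 passed this filter through 64 UMIs in class-switched cells, against 8 in IgD cells. The inducible sum was 2460.0 CPM in class-switched cells and 752 CPM in IgD cells, a ratio of 3.27 (3.01 to 3.56), and the constitutive sum 3793 and 2035 CPM, a ratio of 1.86 (1.75 to 1.98). Hspa1a had 158 UMIs or 486 CPM in class-switched cells and 52.3 CPM in IgD cells, a ratio of 9.31 (7.34 to 11.8). This came from few cells: 18.2% of the 44 cells had an Hspa1a UMI, and 11.4% after thinning. The highest held 63 and another 48 of the 158 UMIs. Without the cell with most UMIs in each state, chosen for each gene or sum, the inducible ratio was 2.49 (2.26 to 2.74). The Hspa1a ratio was 10.2 (7.44 to 14.0), 9 of 10 members were at least 1.5-fold higher, and Hspe1 had 0.829 (0.696 to 0.981). Hspa1a fell on both sides, to 299 CPM in class-switched and 29.3 CPM in IgD cells. That ratio thus does not show how far few cells carry the difference.

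At day 14 this was not seen. None of the 9 members with at least 50 UMIs over both states was at least 1.5-fold higher in class-switched than in IgD cells. Of all genes, 23.5% were. Lower by that much were 3 of the 9, where 31.5% of all genes were. Those 3 were Hspa1a with 7 UMIs at a ratio of 0.183 (0.0732 to 0.380), Hspa1b with 2 UMIs at 0.458 (0.0540 to 1.74) and Hspe1 at 0.662 (0.545 to 0.797). Hspa1a and Hspa1b passed the filter only through IgD cells, with 464 and 53 UMIs there. The inducible sum was 636 CPM in class-switched cells and 755 CPM in IgD cells, a ratio of 0.842 (0.728 to 0.969), and the constitutive sum 2095 and 2057 CPM, a ratio of 1.02 (0.941 to 1.10). With the same 41 cells thinned to 1000 UMIs each, the inducible ratio at day 14 was 1.13 (0.723 to 1.70) and the constitutive ratio 0.901 (0.670 to 1.19). With the states called again on thinned cells, which left 27 class-switched cells, they were 1.35 (0.746 to 2.26) and 0.699 (0.430 to 1.07). All 4 intervals hold 1. Without the cell with most UMIs in each state, 7 of all 10 members were lower by at least 1.5-fold, against 4 of 10 with it. Leaving out 1 of 41 cells takes more from a level than leaving out 1 of 1486 IgD cells. The removal itself thus lowers these ratios, and no share of all genes is given beside the count, so nothing is read from it. Hspb1 had no UMI in the 41 cells, which allows up to 3 counts. Directly between the days, class-switched cells had an inducible ratio of 0.259 (0.221 to 0.302) and a constitutive ratio of 0.552 (0.502 to 0.607), day 14 over day 0. Immediate early genes in class-switched cells differed in the same direction, at 4805 CPM at day 14 and 8738 CPM at day 0, a ratio of 0.550 (0.517 to 0.585), and their part in the result was not tested. The mitochondrially encoded share was 1.70% at day 14 and 1.73% at day 0.

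**Figure D5:**
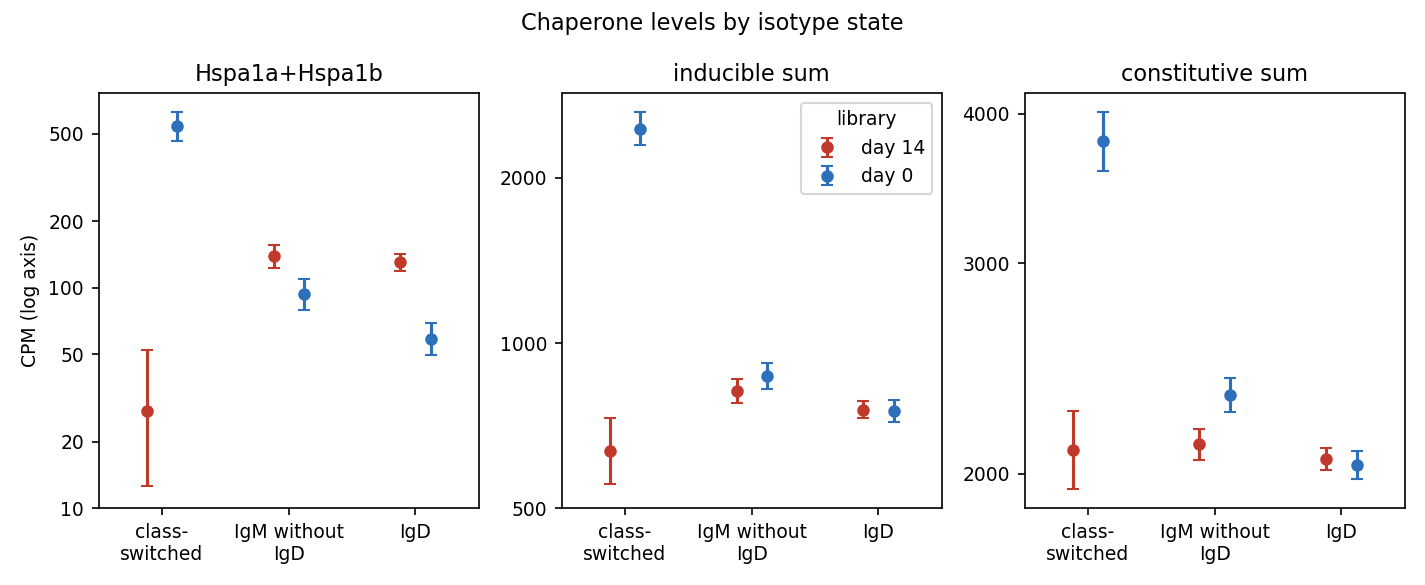
Sum of Hspa1a and Hspa1b, inducible sum and constitutive sum by isotype state in CPM on log axes, with exact Poisson 95% intervals of counting error, day 14 left and day 0 right. In class-switched cells the inducible sum is at 636 CPM at day 14 and 2460.0 CPM at day 0, and in IgD cells at 755 and 752 CPM.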

How the data were processed

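Raw UMI counts per gene and barcode are what the deposited matrices hold, and Cell Ranger 3.0.1 is named per the file headers. Genome build mm10 and Seurat 3.0 are named per the submitters' processing notes. Parameters of alignment and cell calling are not stated in these. The log-normalized tables, also deposited, are on a natural log scale, ln(1 + 10000 × UMIs / the cell's total), checked on all values of 300 genes within a relative tolerance of 0.001. Their barcodes set the cells used, leaving out 88 of 4780 at day 14 and 86 of 3376 at day 0.

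For levels, UMIs were summed per library or cell group and scaled to the sum without immunoglobulin and mitochondrially encoded genes. Intervals are exact Poisson for levels, exact Clopper-Pearson for shares and exact conditional for ratios (SciPy 1.17.1). PCR, capture and the uneven spread of UMIs over cells add error beyond counting. No test was run, each group being 1 library, and 1.5-fold describes a size. Genes without counts in a library took a floor of 3 counts there. Clusters came from 2000 variable genes (chaperone, immunoglobulin, mitochondrial and ribosomal protein genes left out), 20 principal components, 20 neighbours and Leiden resolution 0.8 (Scanpy 1.11.5, leidenalg 0.10.2). No doublet caller was run; cells of more than 2 times the library's median UMIs were left out as an alternative. Scaling alternatives took TMM factors from edgeR 4.0.16 and median-of-ratios factors from DESeq2 1.42.0, with no count model. Ratios and intervals were tested on simulated library sums drawn with Poisson error. The intervals assume that same error, so this checks the computation and not their fit to these cells. Thinning was tested on the cells themselves, against the number of cells expected from random draws. GENCODE M21 held 31011 of the 31053 gene IDs and set the mm10 positions. Protein sequences were not used here, and 1 cluster and 1 of the 3 most abundant other chaperones are not reported here.

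The members, gene lists and alternatives were chosen with earlier results of these data known. By rule, the text names the 4 highest and 4 lowest other chaperones by ratio, the 3 most abundant, and the 8 genes most like Hspa1a and Hspa1b. Cells with at least 10 Hspa1a UMIs, single clusters and the other chaperones named for cells with Hspa1a or Hspa1b were picked after their values were seen.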

Additional observations from a re-analysis of the deposited data

Results flagged for a closer look

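The day 14 over day 0 ratios of some members went opposite ways in different isotype states, with counting intervals on both sides of 1. Those intervals take each UMI as independent, while UMIs of Hspa1a, Hspa1b and Dnajb1 were unevenly spread over cells, so they are too narrow. Among class-switched day 0 cells, 1 held 67 of the 118 Dnajb1 UMIs. The highest for Hspa1a held 63 and another 48 of the 158 UMIs. The differences between states were not tested, since each group is 1 library. Hspa1a had a ratio of 0.0440 in class-switched cells, 1.36 in IgM cells without IgD and 2.24 in IgD cells. For Hspa1b the ratio was 0.117 in class-switched cells, 3.98 in IgM cells without IgD (36 UMIs at day 14 and 7 at day 0) and 2.11 in IgD cells. Their sum had 0.0511 in class-switched cells, 1.48 in IgM cells without IgD and 2.22 in IgD cells. Dnajb1 had 0.210 in class-switched and 1.23 in IgD cells, and Hspa8 0.662 in class-switched and 1.06 in IgD cells. The class-switched ratios rest on 41 cells at day 14 and 44 cells at day 0, with 7 and 158 Hspa1a UMIs.

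Barcodes left out of the deposited log-normalized tables, 88 at day 14 and 86 at day 0, also held chaperone UMIs. For Hspa1a, 48 UMIs at day 14 stood against 13 at day 0, and the ratio of levels was 3.67 (1.96 to 7.39). For Hsph1, 20 stood against 5, and the ratio was 3.98 (1.45 to 13.6), opposite in direction to its ratio in the cells kept. Dnajb1 was lower there, with 48 against 101 UMIs and a ratio of 0.473 (0.328 to 0.673). Hspb1 had 131 UMIs at day 14 and none at day 0, 43.45-fold higher against a floor of 3 counts at day 0. The lower limit of the interval was 34.8-fold.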

How the results depend on the processing

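Ratios are day 14 over day 0 unless stated. The inducible ratio (0.852) was 0.916 with TMM factors, 0.920 with median-of-ratios factors, 0.915 without cells above 2 times the median UMIs, 0.922 without class-switched cells, 0.892 after thinning, 0.757 without the Phlda1 cluster, 0.903 without the Tnfrsf17 cluster, 0.952 with Hsp90aa1 moved to the constitutive members and 0.798 without Hspa1a and Hspa1b. Over the same settings the constitutive ratio (0.954) was 1.02 with TMM, 1.03 with median-of-ratios, 0.979 without high-UMI cells, 0.985 without class-switched cells, 0.986 thinned, 0.976 without the Tnfrsf17 cluster, 0.921 with Hsp90aa1 added and 0.977 with Dnaja1 moved to the inducible members. The median log2 ratio of all genes was -0.09 in the scaling used and 0.02 with either factor set. With TMM, 2.33% of genes were higher and 2.94% lower by 1.5-fold.

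Higher members (0 of 10) numbered 1 without high-UMI cells, 2 without class-switched cells, 2 without the Tnfrsf17 cluster and 2 at the smaller fold tried. Lower members (2 of 10) numbered 1 with TMM, 1 with median-of-ratios, 1 without class-switched cells, 1 without that cluster and 1 at 2-fold. Of all genes, 2.94% were lower by 1.5-fold with TMM and 2.88% with median-of-ratios, against 4.96% in the scaling used. Without class-switched cells 4.65% were, and without the Tnfrsf17 cluster 4.99%. No share of all genes is given at the smaller fold or at 2-fold, so those counts have no background.

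Thinned to 700 and to 1500 UMIs, cells with an inducible UMI made up 30.1% and 50.4% at day 14 and 35.1% and 56.4% at day 0, and with a constitutive UMI 66.8% and 89.4% at day 14 and 66.9% and 88.7% at day 0.

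Class-switched over IgD cells at day 14, the inducible ratio (0.842) was 1.35 thinned with states called again, 1.13 thinned with states kept and 0.725 without the top cell of each state, and the constitutive ratio (1.02) 0.699 and 0.901 in the 2 thinned settings. At day 0 the inducible ratio (3.27) was 3.78 with at least 4 Ighd UMIs, 3.83 with at least 30 switched UMIs, 4.202 thinned with states called again, 2.78 with states kept and 2.49 without the top cell, and the constitutive ratio (1.86) 1.73, 2.01, 2.235, 1.615 and 1.61 in these settings. For IgM without IgD over IgD cells at day 14, the inducible ratio (1.08) was 1.23 thinned with states called again, 1.15 with states kept and 0.751 with at least 10 Ighm UMIs, and the constitutive ratio (1.03) 0.980 with at least 4 Ighd UMIs, 1.17 thinned with states called again, 1.07 with states kept and 1.10 with at least 10 Ighm UMIs. At day 0 the inducible ratio (1.16) was 1.34 with at least 4 Ighd UMIs and 1.01 thinned with states kept, and the constitutive ratio (1.14) 1.06 with that, 1.04 thinned with states called again and 1.29 with at least 10 Ighm UMIs.

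In cells with over cells without Hspa1a or Hspa1b, the other inducible members (6.79 at day 14, 5.99 at day 0) had 5.505 and 4.95 without thinning, 10.7 and 10.35 where the pair needed 2 UMIs, and 4.14 and 4.54 without the Phlda1 cluster. The constitutive members (3.61 and 4.79) had 2.76 and 3.65 without thinning, 4.93 and 7.235 at 2 UMIs, 2.498 and 4.09 without the Phlda1 cluster, and 3.22 at day 14 thinned to 1500 UMIs.

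The cause of these shifts was not tested. Leaving out the Phlda1 cluster, the Tnfrsf17 cluster, single top cells, or keeping the states while thinning, were alternatives chosen after seeing the data. Of the recomputed sums, counts and shares, 65 stayed within their counting interval or within 1.5 times the count and 74 did not. No paired analysis was possible because each day is 1 library. Counts of a few UMIs, as for Hspb1 and Hspa1b by state, bound no small difference, and the spread between mice cannot be told apart from the day.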

Other observations

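The cells with most inducible chaperone UMIs differed between the libraries. At day 14 the highest cell held 92 UMIs of the 6 inducible genes among 3692 UMIs, was in the IgD state and had 43 Hspa1a, 27 Hsp90aa1 and 17 Dnajb1 UMIs. At day 0 the highest held 240 UMIs among 11826, was class-switched with 517 Igha and 185 Jchain UMIs, and had 67 Dnajb1, 59 Hspb1, 53 Hsp90aa1, 48 Hspa1a and 69 Dnaja1 UMIs. A further class-switched day 0 cell, with 1667 Igha UMIs, held 63 Hspa1a, 6 Hspa1b, 28 Hsp90aa1 and 64 Hspa8 UMIs, 5 of Dnajb1, 2 of Hspb1, 2 of Hspe1, 1 of Hspd1 and 0 of Dnaja1 and Hsph1, among 13674. These are values of single cells.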
